A study of Homo sapiens with 6 samples.

Results

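AP-1 is a family of dimeric transcription factors, and its 9 genes examined here were FOS, FOSB, FOSL1, FOSL2, JUN, JUNB, JUND, ATF3 and BATF, of 19775 genes with a probe set of their own on the array. All probe sets annotated to 1 of these genes alone were taken, 21 in all, whatever their values. The NB4 line, established from human acute promyelocytic leukaemia and carrying a PML-RARA fusion gene, was profiled untreated (0 h) and after 4, 12, 24, 48 and 72 h in 1e-06 M all-trans retinoic acid (ATRA), which makes such cells mature toward neutrophils. Each of the 6 times had 1 Affymetrix array of cells of this 1 line in serum-containing medium, with no replicate and no untreated culture at later times, so time in ATRA and time in culture cannot be told apart.

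AP-1 proteins are basic leucine zipper (bZIP) factors. JUN proteins pair with each other or with FOS proteins, and FOS proteins, which cannot pair among themselves, need a JUN partner to bind DNA. The dimers bind the TPA response element (TRE, TGACTCA) and, with ATF partners, the cyclic AMP response element (CRE, TGACGTCA). Many of the genes are immediate-early genes, transcribed within minutes of a growth factor, stress or cytokine signal through MAP kinases and giving short-lived mRNAs. In myeloid cells AP-1 is known for its part in monocyte and macrophage maturation and in inflammatory transcription, and retinoic acid receptors with ligand can repress AP-1 activity.

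The 250 bases before the RefSeq start (GRCh38.p14, gene strand, 5′ to 3′) are shown for the JUN genes, for FOS, and for FOSL2. Each of these genes had a probe set 2-fold or more higher than untreated at 72 h. So did ATF3, whose windows are not shown. Sequences are from RefSeq. Capitals mark TATAAA, the JUN-promoter variant TGACATCA of the TRE, and TGACG, the core of the CRE, on either strand.
FOS (chr14:75278578-75278827, plus strand): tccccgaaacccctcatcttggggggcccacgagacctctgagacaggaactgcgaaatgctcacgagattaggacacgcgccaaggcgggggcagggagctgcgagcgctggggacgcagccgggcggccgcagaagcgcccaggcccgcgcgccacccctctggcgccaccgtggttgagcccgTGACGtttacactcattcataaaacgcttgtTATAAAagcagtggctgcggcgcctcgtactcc
FOSL2 (chr2:28392608-28392857, plus strand): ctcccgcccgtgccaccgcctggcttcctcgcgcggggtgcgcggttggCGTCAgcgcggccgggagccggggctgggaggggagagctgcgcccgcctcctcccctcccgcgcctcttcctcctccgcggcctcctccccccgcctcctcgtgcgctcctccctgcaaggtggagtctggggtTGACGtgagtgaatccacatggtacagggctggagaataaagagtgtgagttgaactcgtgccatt
JUN (chr1:58784048-58784297, minus strand): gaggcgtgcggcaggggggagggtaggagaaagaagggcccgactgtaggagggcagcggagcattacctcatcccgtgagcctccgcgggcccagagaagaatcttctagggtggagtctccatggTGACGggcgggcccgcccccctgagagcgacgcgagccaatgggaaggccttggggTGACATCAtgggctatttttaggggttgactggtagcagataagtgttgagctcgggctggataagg
JUNB (chr19:12791236-12791485, plus strand): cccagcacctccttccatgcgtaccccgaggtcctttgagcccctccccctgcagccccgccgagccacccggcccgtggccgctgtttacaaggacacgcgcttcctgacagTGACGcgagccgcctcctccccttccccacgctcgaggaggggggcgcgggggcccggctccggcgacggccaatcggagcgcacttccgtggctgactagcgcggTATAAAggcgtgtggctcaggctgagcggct
JUND (chr19:18281623-18281872, minus strand): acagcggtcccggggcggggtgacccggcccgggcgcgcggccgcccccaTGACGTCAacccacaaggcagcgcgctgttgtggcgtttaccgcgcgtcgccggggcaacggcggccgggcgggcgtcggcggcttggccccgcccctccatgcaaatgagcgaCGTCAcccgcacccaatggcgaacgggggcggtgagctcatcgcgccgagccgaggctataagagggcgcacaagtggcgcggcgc

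Of the 9 genes, 8 had such an entry, with 9 starts in all because ATF3 had 2, and FOSL1 is named only. TGACG or its complement CGTCA lay in the window of 6 of the 8 genes (FOS, FOSB, FOSL2, JUN, JUNB and JUND), and in 21.2% of 35116 promoters of the same length. A TGACG began 64, 60 and 66 bases before the FOS, FOSB and FOSL2 starts. It was added to the search after the sequences had been read. It overlaps the full CRE, TGACGTCA, which only JUND held, 200 bases before its start, against 1.65% of all promoters. TGACATCA lay 67 bases before the JUN start and 123 bases before the first ATF3 start, and in 2.37% of all promoters. The full TRE, TGACTCA, was in 0 of the 9 windows and in 4.20% of all promoters, and the CArG box, the element of serum response factor, was in 0 of 9 and in 1.16%. Bases further upstream were not searched, so a count of 0 does not show that a gene lacks either element. TATAAA lay 33, 30 and 31 bases before the FOS, FOSB and JUNB starts and 230 bases before the other ATF3 start, against 10.7% of all promoters. A match in letters is a description and not a measured binding site.

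**Figure D1:**
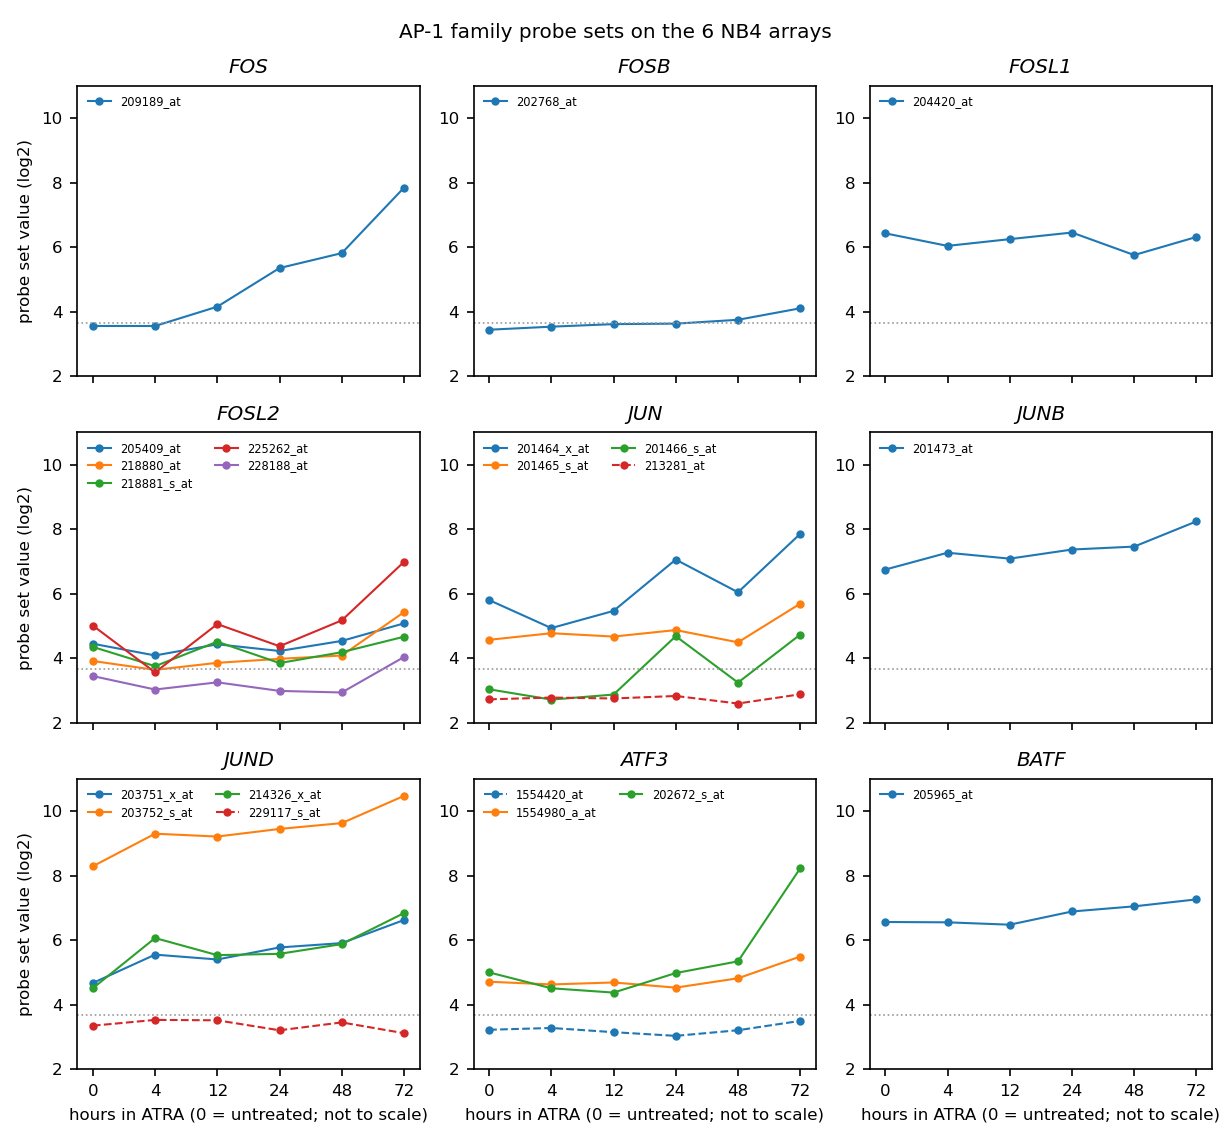
Probe set values (log2) of the 9 AP-1 genes on the 6 arrays, in order of hours in ATRA (0 = untreated), 1 line per probe set. The dotted line is the filter at 3.66, and dashed lines are the 3 probe sets that never reached it. FOS reaches 7.85 at 72 h, and the 2 JUN probe sets 201464_x_at and 201466_s_at peak at 24 h and again at 72 h.

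Values are log2 probe set summaries, so a difference of 1 is 2-fold, and the values of different probe sets are not compared as levels. The filter asked that a probe set exceed or equal 3.66, the median over all values of the 6 arrays, on at least 1 array, and 18 of the 21 did. The 3 others, 213281_at of JUN, 229117_s_at of JUND and 1554420_at of ATF3, stayed at or below 3.52. Of the 18 kept, 4 had an untreated value under 3.66 (FOS, FOSB, 228188_at of FOSL2 and 201466_s_at of JUN), so these passed only through later, higher values. Where 1 end of a fold lay under 3.66, it was replaced by 3.66, and the fold is a lower bound (at least).

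The arrays shared medians of 3.64 to 3.69, and TGM2, a retinoid-induced transglutaminase, was at 12.52 at 72 h against 3.70 untreated. CYP26A1, which degrades retinoic acid, was at 4.94 against 3.50. Of the promyelocyte markers, MPO was at 10.92 at 72 h against 12.90 untreated, CEBPA at 8.56 against 9.71 and CTSG at 4.40 against 6.83. These fell (limma adjusted p = 2.84e-04, 0.0224 and 0.00223). AZU1 was at 9.05 against 9.32 and PRTN3 at 11.07 against 10.76, both without a call (limma adjusted p = 0.335 and 0.408), and ELANE stayed below the filter. Of 7 monocyte markers only CSF1R passed the filter (6.51 at 72 h, 5.20 untreated), and CD14, MRC1, MSR1, VCAN, C1QA and C1QB did not. T cell, B cell, erythroid, and fibroblast or epithelial lists had medians of 3.94 to 4.78 on the 6 arrays. Within them the B cell gene CD79A was at 6.82 at 72 h against 5.36 untreated and rose (limma adjusted p = 0.0481), and the epithelial gene EPCAM was at 4.42 against 5.86 (limma adjusted p = 0.0864). Their part in the AP-1 values was not tested. The spiked control bioC averaged 8.01 and 8.11 on the 0 and 12 h arrays and 6.88 to 7.17 on the 4, 24, 48 and 72 h arrays. Its part in the results was not tested except where a value with it as covariate is given.

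As a family, the AP-1 probe sets were mostly at their highest at 72 h. Of the 21 probe sets, 19 had their highest value on the 72 h array, against 21.0% of all single-gene probe sets, the 2 others being 229117_s_at of JUND and the FOSL1 probe set. At 72 h 11 of the 18 kept probe sets, from 6 genes (FOS, FOSL2, JUN, JUNB, JUND and ATF3), were 2-fold or more higher than untreated and 0 were 2-fold lower, where 10.8% and 12.8% of all 25189 kept probe sets were. The count was also 11 over all 21 probe sets, against 6.71% of single-gene probe sets without the filter. The median difference of the 18 was 1.5 at 72 h, against -0.08 for all kept probe sets, and it was 0.94 with the arrays shifted to the spiked controls without bioC and 2.17 with the shift on all spiked controls. With 1 array per time these differences have no replicate check and no p-value, and the 72 h results rest on a single array. The probe sets of 1 gene read the same RNA and are not replicates.

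Before 72 h the family was divided. At 4 h 2 kept probe sets, both of JUND, were 2-fold or more higher than untreated (1.84% of all kept probe sets) and 1, of FOSL2, was lower (2.55%). At 12 h there was 1 higher (2.16% overall) and 0 lower (1.92%), and at 24 h 6 higher (3.15%) and 0 lower (2.63%), from FOS, JUN and JUND. At 48 h 4 were higher (5.58%) and 0 lower (4.93%), from FOS and JUND. FOS was under the filter at 0 and 4 h, and 1 of the 2 JUN probe sets counted at 24 h was above it only at 24 and 72 h. For these the filter favoured a place in the counts. Without the filter the counts of higher AP-1 probe sets were also 6 at 24 h and 4 at 48 h. The shares of all probe sets without it were not computed at these times. The medians of the 18 were -0.18, 0.01, 0.25 and 0.22 at 4, 12, 24 and 48 h. The direction of single probe sets depended on the scaling of the arrays. The shift on all spiked controls changed the sign of 10, 2, 6, 4 and 1 of the 18 differences at 4, 12, 24, 48 and 72 h, and the shift without bioC that of 2, 1, 5, 8 and 1. At 72 h these were FOSL1 and 218881_s_at of FOSL2.

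**Figure D2:**
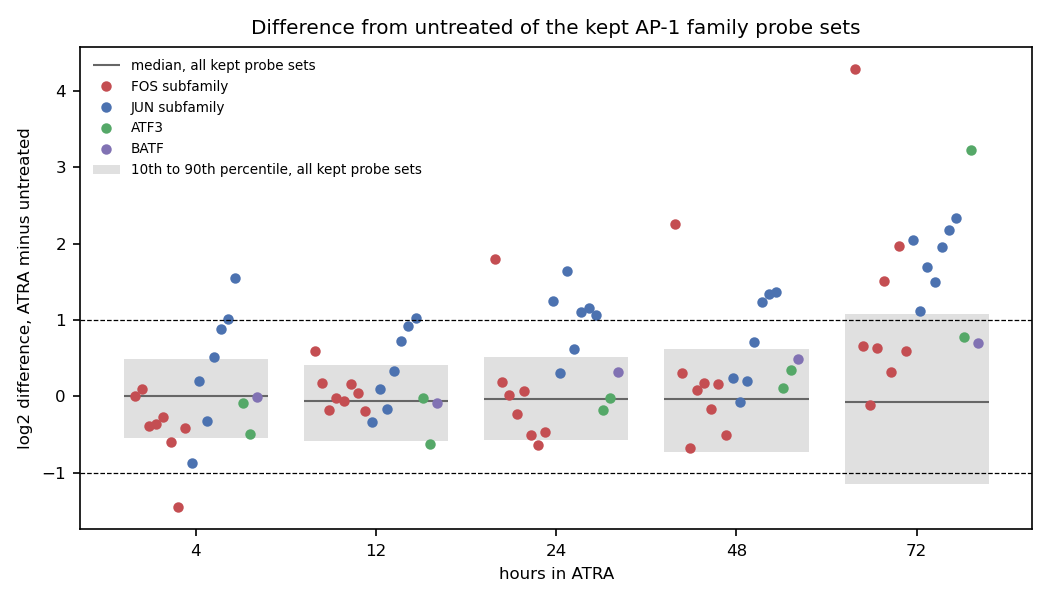
Log2 difference of each of the 18 kept AP-1 probe sets, ATRA minus untreated, at each time, 1 point per probe set, coloured by subfamily. Grey boxes span the 10th to 90th percentile of all kept probe sets and the grey line is their median, and dashed lines mark 2-fold. At 72 h 11 points lie above the upper dashed line and none below the lower one.

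The single test that 6 unreplicated arrays allow is the slope of a straight line over time order (steps 0 to 5), fitted with limma over all 25189 kept probe sets. Of the 18 kept AP-1 probe sets, 4 rose at an adjusted p under 0.05 (FOS, JUNB and 2 of JUND) and 0 fell, against 7.47% rising and 9.68% falling overall. At an unadjusted p under 0.05 there were 12, against 32.7% of all kept probe sets. Among these 12, FOS, FOSB and 1 JUN probe set were under the filter in untreated cells and were kept through later, higher values. For them the filter favoured a rise. Without the filter the count of rising AP-1 probe sets was also 4, but the shares of all probe sets were not computed. Without the 72 h array FOS alone was called, so the count fell to 1, and without the untreated array it was 2 (FOS and 1 FOSL2 probe set).

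**Figure D3:**
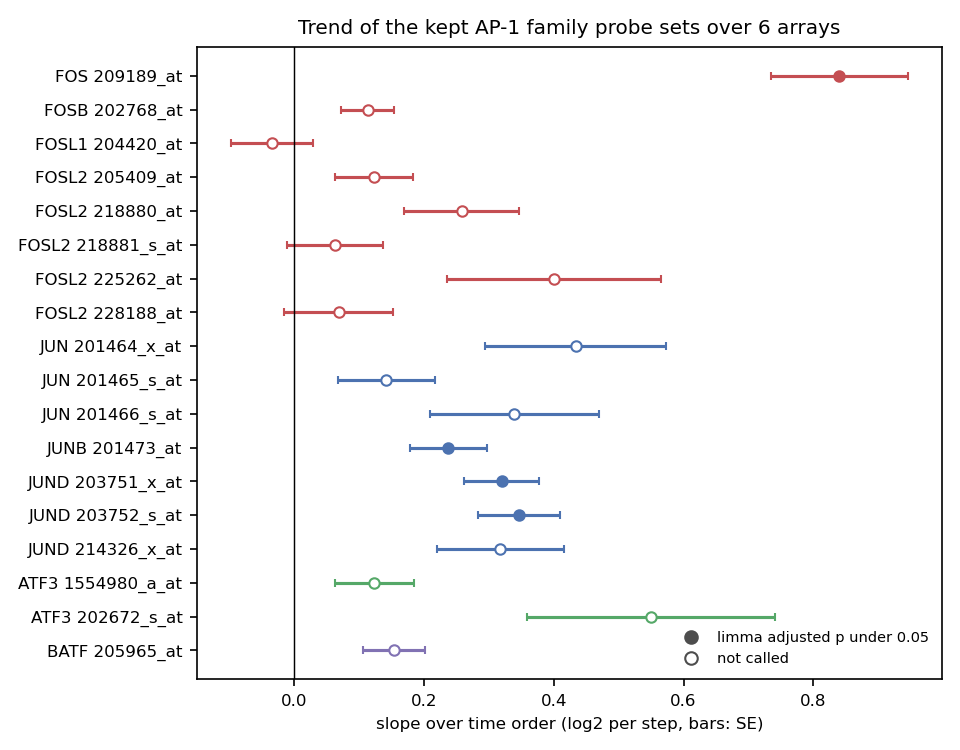
Slope over time order (log2 per step, bars are the SE) of the 18 kept AP-1 probe sets, filled where the limma adjusted p was under 0.05. FOS has the steepest slope, 0.84 per step, and the filled points are FOS, JUNB and 2 JUND probe sets.

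FOS, the founding FOS protein and a classical immediate-early gene, had the widest range of the family. Its probe set 209189_at was at 3.56, 3.56, 4.16, 5.36, 5.82 and 7.85 at 0, 4, 12, 24, 48 and 72 h. It was thus under the filter on the untreated and 4 h arrays, above it from 12 h on, and higher at each later time than at the one before. The difference from untreated was 1.80 at 24 h and 4.29 at 72 h, at least 3.24-fold and at least 18.2-fold. The slope was 0.84 ± 0.11 per step (SE, 6 arrays, limma adjusted p = 0.00383). FOS was called in each of the 16 alternative fits run, with limma adjusted p from 4.77e-12 to 0.0370, those without each array among them, and with the bioC level as covariate the slope was 0.88 (limma adjusted p = 0.0204).

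FOSB, which like FOS carries a transactivation domain, stayed near the filter, at 3.45, 3.54, 3.62, 3.63, 3.75 and 4.11. Its difference at 72 h was 0.66, at least 1.36-fold, and its slope of 0.11 ± 0.04 was not called (limma adjusted p = 0.0942). FOSL1 (FRA-1), which lacks that domain, was at 6.43, 6.04, 6.25, 6.46, 5.76 and 6.32, with its lowest value at 48 h. FOSL1 was the kept member that was not above untreated at 72 h (-0.11). Its slope was -0.03 ± 0.06 (limma adjusted p = 0.769), and its sign at 72 h turned positive with cyclic loess (0.04) and with the shift on all spiked controls (0.55).

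FOSL2 (FRA-2) had 5 probe sets, all kept, which differed in size. The one with the highest mean, 225262_at, was at 5.01, 3.56, 5.06, 4.37, 5.17 and 6.99 at 0, 4, 12, 24, 48 and 72 h. It was low at 4 and 24 h and high at 72 h, and the 0 and 12 h arrays lay close together. Its difference was -1.45 at 4 h, at least 2.55-fold lower in ATRA, and 1.97 at 72 h, 3.93-fold higher. The 4 and 24 h arrays also had low bioC values and the 0 and 12 h arrays high ones. The 48 and 72 h arrays, at 5.17 and 6.99 for this probe set, had low bioC values too. The slope was 0.40 ± 0.17 (limma adjusted p = 0.134) and was called in 4 of 16 alternative fits, among them the one with the bioC level as covariate (0.62, limma adjusted p = 0.0492).

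At 72 h 218880_at of FOSL2 was at 5.43 against 3.91 untreated (1.51, 2.86-fold), while 205409_at (0.63), 228188_at (0.59) and 218881_s_at (0.32) differed by less than 2-fold. All 5 were below untreated at 4 h, by 0.28 to 1.45 on the log2 scale, but with the shift on all spiked controls 225262_at alone stayed below (-0.74). The value of 218881_s_at at 72 h turned negative with the shift on the controls without bioC (-0.25). None of the 5 slopes was called over all probe sets.

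JUN, a possible partner of FOS proteins, had a pattern with 2 peaks. Its probe set 201464_x_at was at 5.80, 4.93, 5.47, 7.06, 6.04 and 7.85 at 0, 4, 12, 24, 48 and 72 h. It was lowest at 4 h, high at 24 h, near untreated at 48 h and highest at 72 h. The probe set 201466_s_at followed the same order of peaks, at 3.04, 2.72, 2.87, 4.68, 3.24 and 4.73, below the filter except at 24 and 72 h. The differences from untreated were 1.25 and 1.65 at 24 h, 0.24 and 0.21 at 48 h, and 2.05 and 1.70 at 72 h. At 24 h this was 2.39-fold for 201464_x_at and at least 2.03-fold for 201466_s_at. With the shift on all spiked controls the 48 h differences were 1.24 and 1.21, no longer near untreated. In that scaling 201464_x_at was lowest at 12 h (-0.48, against -0.16 at 4 h). With the shift without bioC the 24 h differences were 0.78 and 1.17.

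The 48 h array was lower than the 24 h array by 1.01 for 201464_x_at and by 1.44 for 201466_s_at on the log2 scale, which for the second, under the filter at 48 h, is at least 2.03-fold. These were 2 of the 18 kept AP-1 probe sets, where 0.480% of all kept probe sets were 2-fold or more lower at that step. For 201464_x_at the step was under 2-fold with both shifts on the spiked controls and with cyclic loess. Its differences from untreated at 24 and 48 h were 2.08 and 1.24 with the shift on all controls. With the shift without bioC they were 0.78 and -0.12. The probe set 201466_s_at was kept only through its 24 and 72 h values, so the filter favoured its fall at that step. A share without the filter was not computed for it. Another JUN probe set, 201465_s_at, was at 4.57, 4.77, 4.67, 4.87, 4.49 and 5.69, with a small 24 h value (0.30) and 1.12 at 72 h. A straight line is a poor summary of such values, and none of the 3 JUN slopes was called (limma adjusted p = 0.0694 for 201464_x_at, 0.113 for 201466_s_at and 0.233 for 201465_s_at). The suffix of 201464_x_at marks probes that may also bind other transcripts.

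JUNB, which in many settings restrains JUN, was at 6.75, 7.27, 7.09, 7.37, 7.46 and 8.24. All 5 ATRA arrays were above the untreated one, also with both shifts on the spiked controls and with cyclic loess. JUNB was 2.82-fold higher at 72 h (1.49, or 0.93 with the shift without bioC), and rose by 0.24 ± 0.06 per step (limma adjusted p = 0.0319). The call was lost with both shifts on the spiked controls (limma adjusted p = 0.0908 and 0.0896), with the bioC level as covariate (0.0938), within the 4 arrays of low bioC (0.207), and without the untreated, 12 or 72 h array (0.128, 0.0550 and 0.262).

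JUND, the JUN protein known as the most steadily expressed and as a brake on proliferation, was at least 2-fold higher at 4 h in 2 of its 3 kept probe sets. Its probe set 203752_s_at was at 8.29, 9.30, 9.21, 9.44, 9.62 and 10.47 at 0, 4, 12, 24, 48 and 72 h. All 5 ATRA arrays were above the untreated one, and the values from 4 to 48 h lay between 9.21 and 9.62. The probe sets 203751_x_at (4.67, 5.55, 5.40, 5.77, 5.90 and 6.62) and 214326_x_at (4.51, 6.06, 5.53, 5.57, 5.87 and 6.83) showed the same early step and 72 h maximum. Both carry the x_at suffix, which marks probes that may also bind other transcripts. Without x_at probe sets 1 member probe set was 2-fold or more higher at 4 h. The differences from untreated at 4 h were 1.01, 0.88 and 1.56, and with the shift on the controls without bioC they were 0.60, 0.47 and 1.15.

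At 72 h the 3 JUND probe sets were 4.54-, 3.87- and 5.02-fold higher than untreated. The slopes were 0.35 ± 0.06 for 203752_s_at (limma adjusted p = 0.0120), 0.32 ± 0.06 for 203751_x_at (limma adjusted p = 0.0120) and 0.32 ± 0.10 for 214326_x_at, which was not called (limma adjusted p = 0.0615). The 2 called slopes lost the call without the untreated array (limma adjusted p = 0.0723 and 0.0727), without the 72 h array (0.0905 and 0.0985) and within the 4 arrays of low bioC (0.139 and 0.132).

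ATF3, a stress-induced factor that pairs with JUN proteins and often represses, differed late. Its probe set 202672_s_at was at 5.00, 4.51, 4.37, 4.98, 5.34 and 8.22. It was below or near untreated until 24 h, by -0.49, -0.63 and -0.02 at 4, 12 and 24 h, and 9.36-fold above it at 72 h (3.23). The 72 h array was 7.39-fold above the 48 h array. The kept probe set 1554980_a_at showed a smaller difference at 72 h (0.78, 1.72-fold). Neither slope was called (limma adjusted p = 0.0853 and 0.202), and without the 72 h array the slope of 202672_s_at was 0.12 (limma adjusted p = 0.604).

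BATF, a small bZIP protein without a transactivation domain that pairs with JUN proteins and acts with interferon regulatory factors in lymphoid cells, was at 6.56, 6.55, 6.48, 6.88, 7.04 and 7.26. It was level until 12 h and higher from 24 h, reaching 1.62-fold at 72 h (0.70). With the shift on the controls without bioC the difference was -0.15 at 24 h and 0.14 at 72 h. Its slope of 0.15 ± 0.05 was not called (limma adjusted p = 0.0634). It was called with cyclic loess, with time in hours and with the filter at percentile 75.

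Neighbouring ATRA arrays differed most often at the last step. At 12 h 1 of the 18 kept probe sets, FOSL2 225262_at, was 2-fold or more higher than at 4 h (1.89% of all kept probe sets) and 0 were lower (1.70%). At 24 h 3, FOS and 2 of JUN, were higher than at 12 h (0.905%) and 0 lower (0.647%), and at 48 h 0 were higher than at 24 h (1.73%). At 72 h 8 of the 18 kept probe sets were 2-fold or more higher than at 48 h, against 4.71% of all kept probe sets, and 0 were lower (2.13%). These were ATF3 202672_s_at (2.88), FOS (2.03), FOSL2 225262_at, 218880_at and 228188_at (1.81, 1.34 and 1.10) and JUN 201464_x_at, 201466_s_at and 201465_s_at (1.81, 1.49 and 1.20). At 48 h FOSL2 228188_at and JUN 201466_s_at were under the filter, so their folds are at least 1.30 and at least 2.10, and 228188_at is not shown to be 2-fold higher. FOSL2 228188_at was kept through its 72 h value alone, and JUN 201466_s_at through its 24 and 72 h values. The filter thus favoured their place in these counts, and shares without the filter were not computed for neighbouring arrays. JUNB (0.78) and JUND (0.72 to 0.96) were not among them. The comparison of neighbouring arrays was chosen after the values had been seen.

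The order of the 72 h differences by the probe set with the highest mean was FOS (4.29), ATF3 (3.23), JUND (2.18), JUN (2.05), FOSL2 (1.97), JUNB (1.49), BATF (0.70), FOSB (0.66) and FOSL1 (-0.11). FOS and FOSB were under the filter in untreated cells, so their places rest on values that are lower bounds once the filter is used (at least 18.2-fold and at least 1.36-fold), and FOSB has no settled place against BATF. With no replicates, neighbours in that order cannot be separated.

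Among 4143 other kept genes with a range of at least 1, those most like FOS over the 6 arrays were SNRK (r = 0.998), SPG11 (0.995) and MAN2B2 (0.995). For ATF3 they were SLC25A28 (0.997), FCGR2C (0.997) and MIA3 (0.996), and for FOSL2 225262_at H2BC12L (0.997), FMNL2 (0.989) and NCSTN (0.987). FCGR2C and H2BC12L have close paralogs that their probe sets may also read. With 6 points many genes are alike: 341 of the 4143 had r of at least 0.95 with FOS, 276 with ATF3 and 39 with FOSL2. FMNL2 shared the FOSL2 dip at 4 and 24 h, at 5.82, 4.93, 5.86, 5.24, 6.03 and 7.69. SNRK was at 7.43, 7.40, 7.59, 7.85, 7.96 and 8.56, a much narrower range than that of FOS.

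Genes around AP-1 were counted from lists, each gene through its brightest probe set on average, beside 13594 kept genes of which 8.02% rose and 9.53% fell in the same limma fit. At 72 h 10.9% of those genes lay at least 2-fold above untreated and 12.2% below, with a median difference of -0.06. Of 97 listed genes 78 were kept, 7 were below the filter and 12 had no probe set of their own, and 18 of the 78 rose and 2 fell.

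The upstream MAP kinase cascade showed little: 0 of 14 kept genes rose or fell, 0 were 2-fold different at 72 h, and the median difference was -0.17. The kinase kinase kinase MAP3K1 was at 7.85 at 72 h against 8.83 untreated, and the p38 kinase MAPK13 at 4.95 against 4.05. The ribosomal S6 kinases RPS6KA1 and RPS6KA5 differed by 0.60 and 0.44. Of serum response factor and its partners 1 of 6 rose, ELK3 (2.69 at 72 h, in 1 of its 2 kept probe sets). MRTFA (1.38), ELK4 (0.66) and SRF itself (-0.30) were not called, and MRTFA was 2-fold or more higher in 1 of its 5 kept probe sets. The ubiquitin ligase list had 0 calls among 4 kept genes, with ITCH, COP1, FBXW7 and DET1 at differences of 0.64, 0.50, 0.35 and 0.29.

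Of 9 kept inhibitors that damp MAP kinases by feedback 4 rose, 0 fell and the median at 72 h was 0.68. Among those not called, DUSP10 and SPRED1 differed by -0.85 and -0.81 at 72 h, and both were named after their values were seen. DUSP5, a nuclear ERK phosphatase, was at 3.68, 4.25, 5.05, 5.15, 6.52 and 9.08 at 0, 4, 12, 24, 48 and 72 h and rose by 0.97 ± 0.14 per step (limma adjusted p = 0.00587). DUSP1, a nuclear MAP kinase phosphatase and itself an immediate-early gene, was at 4.47, 4.22, 4.37, 5.06, 5.27 and 8.03, low until 48 h and high at 72 h. It rose by 0.62 ± 0.16 per step (limma adjusted p = 0.0379), in 1 of its 2 kept probe sets. The ERK phosphatase DUSP6 (2.57 at 72 h) and the receptor signalling inhibitor SPRY2 (2.78) also rose.

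Other immediate-early genes had a median of 1.67 at 72 h. Of 14 kept, 4 rose (EGR3, SGK1, MCL1 and IER5), 0 fell, and 8 were 2-fold or more higher at 72 h. The zinc finger factor EGR3 was at 7.75 at 72 h against 3.08 untreated, and the kinase SGK1 at 7.06 against 4.83. EGR1 was at 6.95, 5.36, 8.18, 9.64, 8.61 and 9.45, with a dip at 4 h, a peak at 24 h and a lower 48 h value. Its slope was not called (limma adjusted p = 0.0515), nor was that of ZFP36, an mRNA-destabilising protein (1.88 at 72 h, limma adjusted p = 0.0524).

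Among the other bZIP partners 3 of 16 kept genes rose and 0 fell, with a median of 0.57 at 72 h. At that time 5 were 2-fold or more higher than untreated and 1 was lower. The lower one, NFE2, named after its values were seen, differed by -1.25 without a call (limma adjusted p = 0.177). BATF2, a BATF relative known as interferon-inducible, was at 4.60, 4.64, 6.32, 6.63, 8.44 and 10.23 and rose by 1.14 ± 0.11 per step (limma adjusted p = 0.00151). The small MAF protein MAFF (3.64 at 72 h) and the repressor BACH1 (2.51, in 1 of its 2 kept probe sets) rose, and CREM, a cyclic AMP response modulator, was higher by 2.24 without a call (limma adjusted p = 0.0626).

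Of 15 kept textbook AP-1 targets 6 rose and 2 fell, with a median of 1.77 at 72 h, and 10 were 2-fold or more higher and 3 lower. Osteopontin, SPP1, was at 10.81 at 72 h against 4.53 untreated, and the adhesion molecule ICAM1 at 11.15 against 5.11. The cytokine IL1B was at 8.82 against 4.16 and the chemokine CXCL8 at 11.80 against 8.03, and all 4 were among the 6 that rose. The 2 that fell, named after their values were seen, were the intermediate filament vimentin, VIM (8.24 against 11.12), and the gelatinase MMP9 (5.49 against 7.61). The cytokine TNF, also named after its values were seen, was at 8.80, 6.49, 7.22, 6.96, 6.37 and 6.52 at 0, 4, 12, 24, 48 and 72 h, 4.85-fold lower at 72 h, without a called slope (limma adjusted p = 0.106). The collagenase MMP1 and the stromelysin MMP3, classical TRE genes, stayed below the filter, as did IL6, and these 3 too were named after their values were seen. Most of these genes answer to other factors as well, so the list does not measure AP-1 activity.

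**Figure D4:**
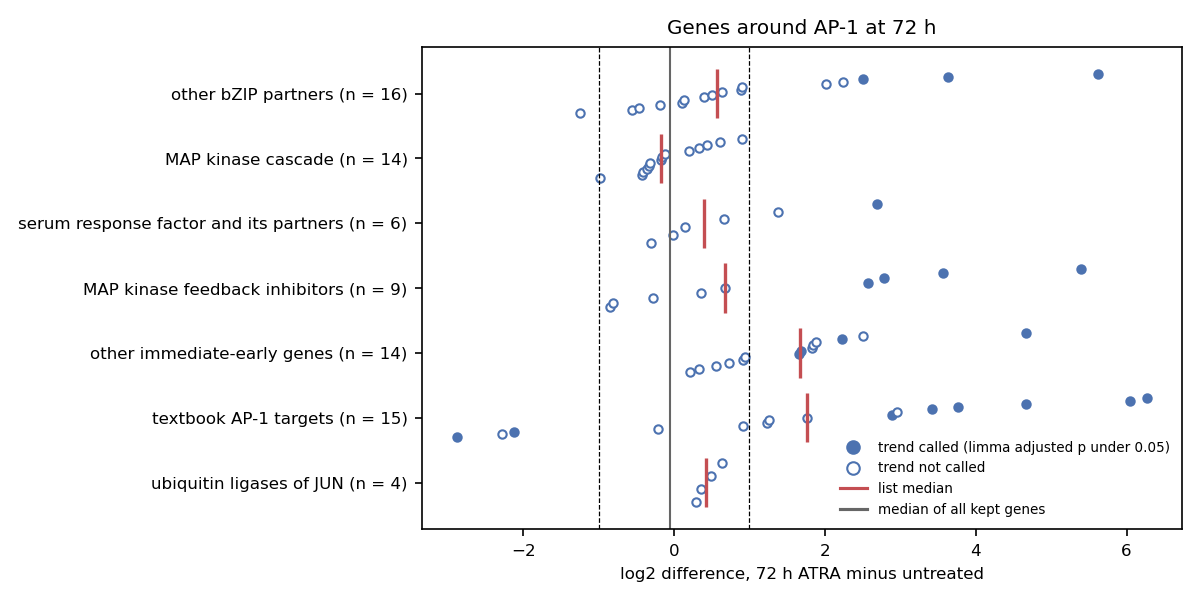
Log2 difference at 72 h, ATRA minus untreated, of the kept genes of 7 lists, 1 point per gene, filled where the trend was called by limma at an adjusted p under 0.05. Red bars are list medians, the grey line is the median of all kept genes (-0.06) and dashed lines mark 2-fold. The MAP kinase cascade lies within the dashed lines, and the immediate-early and target lists have medians of 1.67 and 1.77.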

How the data were processed

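RNA of untreated NB4 cells and of cells after 5 times in ATRA was hybridised to 6 arrays, grouped by the time in their labels. The authors deposited log2 values, 1 per probe set and array, made with RMA per the submitters' processing notes. Its version was not given in the sources used here. Quantile normalization within RMA hides any change that most transcripts share. The number of arrays limits the precision.

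Of 54675 probe sets, 41091 had 1 gene in the platform annotation and were no control, and 25189 reached the filter of 3.66. Symbols were updated through Entrez identifiers (41037 probe sets) to GRCh38.p14, used with RefSeq promoters for names and sequences. Trends came from limma 3.58.1 under R 4.3.3, by lmFit and by eBayes with trend = TRUE, adjusted after Benjamini-Hochberg, and the script was tested on simulated data. Differences between arrays were counted at 2-fold.

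The members, lists and tests were chosen with earlier results of these data known. Named genes were all members, the up to 4 list genes with the largest 72 h difference, called genes of lists with 5 or fewer calls, the 3 genes most like each of the 3 members of widest range, markers, CYP26A1 and TGM2. Alternatives were other scalings, filters, time in hours, bioC as covariate, arrays left out, other probe set choices, thresholds and baselines.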

Additional observations from a re-analysis of the deposited data

How the results depend on the processing

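With 1 array per time, every difference from untreated rests on 2 arrays, and the untreated array enters all of them. No paired analysis was possible because the groups hold 1 sample each. The number of rising AP-1 probe sets, 4 as reported, was 9 with the shift on all spiked controls and with time in hours, 7 with the filter at percentile 75, and 1 within the 4, 24, 48 and 72 h arrays. With 1 array left out it ranged from 1 (without 72 h) to 5 (without 4 h and without 48 h), and 0 members fell in any fit. The cause of these changes was not tested.

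Of the slopes, that of FOSL1 (-0.03) was positive with the shift on all controls (0.11), with the bioC covariate (0.0076), within the 4 arrays (0.019) and without the 0 or 48 h array (0.0061 and 0.014), and ranged from -0.093 to 0.014 with 1 array left out. Those of FOSL2 228188_at and 218881_s_at were negative with the shift without bioC (-0.019 and -0.024) and without the 72 h array (-0.11 and -0.023), as was that of JUN 201465_s_at without 72 h (-0.0058). With 1 array left out these 3 ranged up to 0.17, 0.15 and 0.21. None of these slopes was called under the settings that changed their sign.

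In the order shift on all controls, shift without bioC, 1 probe set per gene and no x_at probe sets, the members 2-fold higher than untreated were 4, 1, 1 and 1 at 4 h (2 as reported), 0, 0, 0 and 0 at 12 h (1), 10, 2, 3 and 3 at 24 h (6), and 14, 2, 2 and 2 at 48 h (4). At 12 h cyclic loess gave 2 and a 1.5-fold threshold 4 higher and 1 lower. Against the 4 h array 3 were higher at 24 h. The members 2-fold lower were 0, 3 and, at 1.5-fold, 3 at 4 h, and with the shift without bioC or at 1.5-fold 1 at 24 h and 1 at 48 h. At 72 h the count of 11 was 6 with 1 probe set per gene and between 8 and 16 in the other settings, with 0 lower in each. List genes rising (18) numbered 9 within the 4 arrays, and those falling (2) numbered 1 there, 1 with the shift on all controls and 6 with the shift without bioC.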
